A study of Mus musculus with 11 samples.

Results

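Toll-like receptor 2, its adaptor Myd88, the NF-kB transcription factors and the proteins that restrain them were followed in sorted epithelial cells of the mouse small intestine. The genes were taken by symbol from a deposited expression table in RPKM (read density corrected for gene length and library size), which held 9 of the 10 genes listed among its 11366 genes; the intracellular receptor gene Nod2 was not analysed here. All mice were wild type, and 3 groups were compared. SFB mice ate standard chow and were colonized with SFB, read here as segmented filamentous bacteria (4 libraries). NFF mice ate a diet low in fermentable fiber (4 libraries), and Control mice ate standard chow with no further treatment (3 libraries). Cells had been sorted as live, EpCAM-positive and negative for CD45, CD31 and CD44, the last being enriched on crypt cells. The labels give neither the age of the mice nor whether each library came from its own animal, so the p-values speak of variation among libraries, part of which could be technical.

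Toll-like receptors recognise microbial products at the cell surface or in endosomes, and most of them signal through the adaptor MyD88 to the IkB kinases. In the canonical branch these kinases mark the inhibitor IkB-alpha, the product of Nfkbia, for degradation and so release dimers of RelA and p50, and p50 is cut from the Nfkb1 product. In the noncanonical branch the Nfkb2 product is cut to p52, which pairs with RelB. Nfkbiz encodes IkB-zeta, a nuclear IkB protein that helps to induce a subset of NF-kB targets downstream of Toll-like and interleukin receptors, and Tnfaip3 encodes A20, a ubiquitin-editing enzyme that dampens the pathway. Segmented filamentous bacteria attach to the ileal epithelium and are known for eliciting T helper 17 cells.

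Several of these genes are themselves known NF-kB targets, so the promoters of 3 of them are shown with the matches to a loose form of the kB motif (GGGA, any 4 bases, then CC) in capitals. Each window runs 5′ to 3′ on the gene's strand from 250 bases before the start site to 50 after it (RefSeq, GRCm38.p6). Tlr2, at chr3:83841559-83841858 on the minus strand, and Nfkb2, at chr19:46304487-46304786 on the plus strand for the first of its annotated starts, are shown because their levels moved in opposite directions. Nfkbia, at chr12:55492598-55492897 on the minus strand, is shown as an inhibitor whose level overlapped between all groups. The level of Tnfaip3 also overlapped, and its windows are not shown.
Tlr2: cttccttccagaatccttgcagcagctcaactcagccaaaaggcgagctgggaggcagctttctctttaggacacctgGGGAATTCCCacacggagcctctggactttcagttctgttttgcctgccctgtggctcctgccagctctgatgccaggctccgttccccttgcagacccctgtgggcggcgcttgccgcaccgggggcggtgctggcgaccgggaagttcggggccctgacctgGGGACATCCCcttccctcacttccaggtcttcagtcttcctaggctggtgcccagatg
Nfkb2: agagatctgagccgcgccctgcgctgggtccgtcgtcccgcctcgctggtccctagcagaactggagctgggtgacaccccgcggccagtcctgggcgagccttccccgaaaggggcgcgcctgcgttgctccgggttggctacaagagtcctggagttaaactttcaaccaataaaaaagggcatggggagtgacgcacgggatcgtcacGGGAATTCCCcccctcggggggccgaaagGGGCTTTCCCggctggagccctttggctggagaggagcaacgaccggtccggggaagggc
Nfkbia: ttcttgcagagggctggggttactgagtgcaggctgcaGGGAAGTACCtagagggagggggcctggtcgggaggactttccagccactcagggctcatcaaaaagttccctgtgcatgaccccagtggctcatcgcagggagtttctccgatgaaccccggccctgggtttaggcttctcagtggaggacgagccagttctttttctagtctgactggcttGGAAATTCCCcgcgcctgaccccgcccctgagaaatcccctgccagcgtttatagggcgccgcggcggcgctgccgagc
The motif was searched on both strands, and 20.7% of all 32851 promoter windows of this length held it. The table held promoters of 7 of the 10 listed genes. In 5 of these 7 at least 1 window held the motif, while the windows of Myd88 and Nod2 did not. This count is by gene, and Nfkb2 and Tnfaip3 had more than 1 window, so it is not in the same unit as the share of windows. In Tlr2 the matches began 172 and 8 bases before the start site, and both had the narrower form GGGA, any 2 bases, TCCC, which reads the same way on either strand and which 0.664% of all windows held. Nfkb2 held that form 39 bases before its start, and in Nfkbia a match to GGGA, any 2 bases, TTCC, held by 1.47% of all windows, lay on the opposite strand 29 bases before the start. These matches describe the letters only; binding was not measured.

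Epithelial identity was clear in every library, with Epcam between 489 and 670 RPKM, whereas Ptprc, which encodes CD45, was between 0.247 and 2.48 RPKM. Summed RPKM per library was 237248 to 302661, and the read depth is unknown. Some libraries stood apart on marker genes. Control 2 had a summed level of 315 RPKM for 6 markers of the distal small intestine, against 1996 to 4981 RPKM in the SFB libraries, 4398 to 4624 RPKM in the NFF libraries and 3755 and 4232 RPKM in the remaining Control libraries. Control 2 also had the highest sum of 5 proximal markers, at 2883 RPKM. The SFB libraries had 61.4 to 263 RPKM, the NFF libraries 295 to 648 RPKM and Control 4 and 5 had 199 and 323 RPKM. Most of the sum in Control 2 was Fabp1 (2665 RPKM), whereas the proximal marker Slc40a1 was lowest there (2.37 RPKM). SFB 2 had 411 RPKM for 7 Paneth cell markers, where the next lowest library had 6201 RPKM, and SFB 4 had 214 RPKM for 9 crypt and dividing-cell markers, where the next highest library had 91.1 RPKM. Because these are bulk samples, fewer cells of a type and less RNA per cell cannot be told apart.

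Tlr2 and Nfkbiz rose in SFB relative to NFF, while Relb and Nfkb2 fell. The other members, Myd88, Rela, Nfkb1, Nfkbia and Tnfaip3, did not pass the test in any comparison. Calls required an adjusted p under 0.05 from limma, fitted to log2(RPKM + 1) of all 10482 genes with at least 1 RPKM in at least 3 libraries and adjusted over them by the Benjamini-Hochberg method. Between SFB and NFF, which differ in both diet and colonization, 4 of the 9 members were called, against 7.34% of all tested genes. Of the members 2 rose and 2 fell, against 3.14% and 4.2%. The members and the further lists below were chosen with earlier results of these data known, so these shares are descriptions only. All 9 members passed the filter on low values. Tlr2 reached 1 RPKM in 7 libraries, of which 4 were SFB, 1 NFF and 2 Control, so that it passed with or without SFB.

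**Figure D1:**
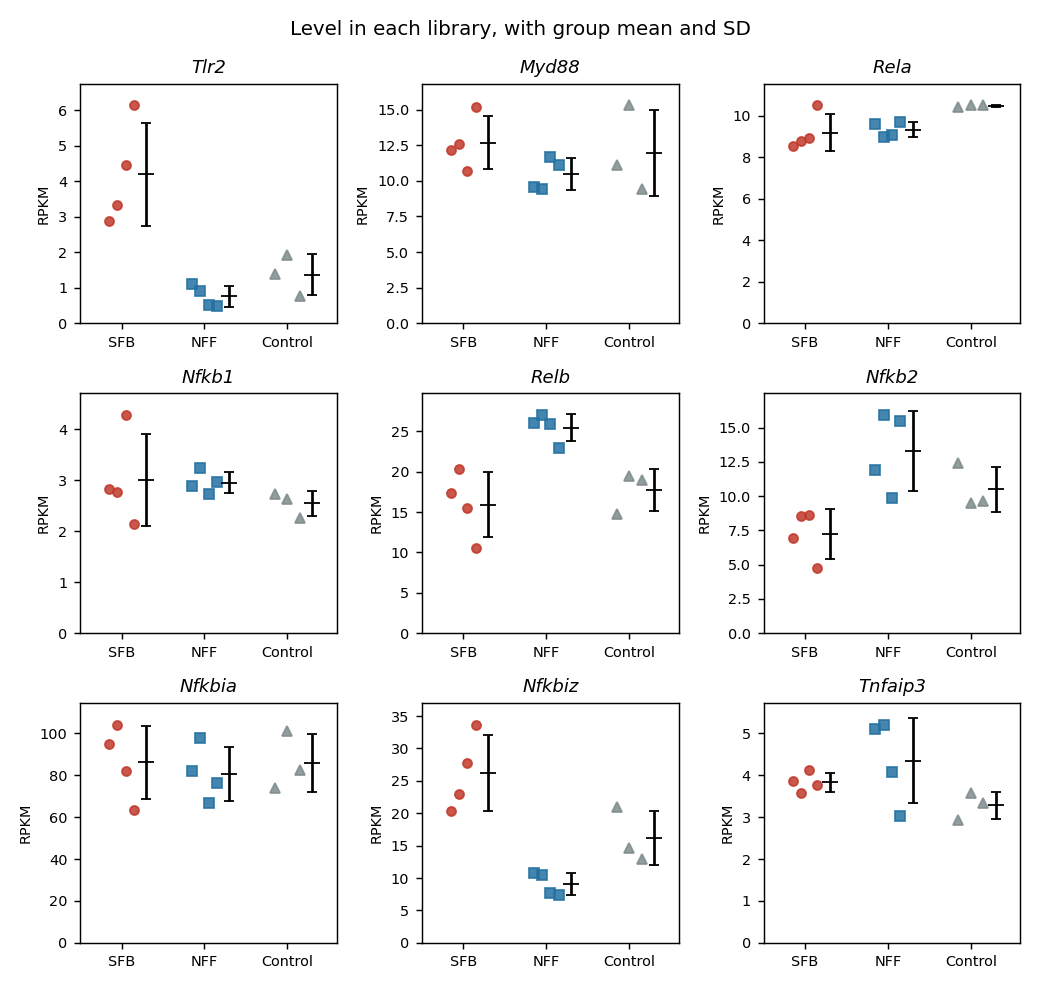
RPKM of each of the 9 genes (y axes from 0) in the SFB, NFF and Control libraries; each point is 1 library, and the black bar beside each group is its mean and SD. Tlr2 and Nfkbiz have every SFB library above every NFF library, Relb and Nfkb2 have every SFB library below every NFF library, and the other 5 genes overlap between SFB and NFF.

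Tlr2, the receptor for bacterial lipoproteins, was the member with the largest change. It stood at 2.87, 3.32, 4.46 and 6.14 RPKM in SFB 1 to SFB 4, against 1.1, 0.902, 0.525 and 0.494 RPKM in NFF 1 to NFF 4 and 1.38, 1.93 and 0.772 RPKM in Control 2, 4 and 5. Every SFB library was above every NFF and every Control library, and the NFF and Control libraries overlapped. Between SFB and NFF the log2 fold change was 1.54 ± 0.22 (SE; limma adjusted p = 0.00257), and the ratio of mean RPKM was 5.57. The log2 value understates the change of a gene this low, because 1 RPKM was added before taking logs. Against Control the SFB value was 1.13, with a 95% interval of 0.62 to 1.64, and missed the threshold (adjusted p = 0.0719), although Tlr2 ranked 63 of the 10482 genes by p. With 1 library left out it was called only without SFB 1 (1.26, adjusted p = 0.0497). Over these fits the value ran from 0.94 without Control 5 to 1.30 without Control 4, with a highest limma adjusted p of 0.26. NFF differed from Control by -0.41, with an interval of -0.92 to 0.10 (adjusted p = 0.896). The gene lies on chromosome 3 (83836272 to 83841767, GRCm38), where no other annotated gene overlaps it.

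Nfkbiz, the gene of the nuclear cofactor IkB-zeta, was ordered like Tlr2 at a higher level. It stood at 20.4, 22.9, 27.8 and 33.6 RPKM in SFB 1 to SFB 4, against 10.8, 10.4, 7.74 and 7.42 RPKM in NFF 1 to NFF 4 and 20.9, 14.6 and 13.0 RPKM in Control 2, 4 and 5. Every NFF library was below every SFB and every Control library, and only Control 2 reached into the SFB range. The log2 fold change between SFB and NFF was 1.42 ± 0.19 (SE; limma adjusted p = 0.0022), a ratio of mean RPKM of 2.88. The SFB and NFF values lay on either side of Control, at 0.67 (interval 0.22 to 1.12, adjusted p = 0.205) for SFB and -0.76 (interval -1.20 to -0.31, adjusted p = 0.659) for NFF. Neither passed, and both comparisons share the 3 Control libraries. Of the members, Nfkbiz had the lowest unadjusted p between NFF and Control, ranking 52 of the 10482 genes. The gene spans 55811375 to 55838899 on chromosome 16 with no annotated overlap.

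Both calls between SFB and NFF were made whichever library was left out. Tlr2 ranged from 1.37 without SFB 4 to 1.67 without SFB 1, with a highest limma adjusted p of 0.0117, and Nfkbiz ranged from 1.30 to 1.53 without the same libraries, with a highest adjusted p of 0.0103. Without Control 2, SFB 2 and SFB 4, the libraries that stood apart, Tlr2 was at 1.40 (adjusted p = 0.0115) and Nfkbiz at 1.32 (adjusted p = 0.00507).

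Relb and Nfkb2, whose products form the RelB and p52 dimer of the noncanonical branch, differed in the other direction. Relb stood at 17.3, 20.3, 15.5 and 10.6 RPKM in SFB 1 to SFB 4, against 26.0, 27.0, 25.9 and 23.0 RPKM in NFF 1 to NFF 4 and 14.7, 19.5 and 19.0 RPKM in Control 2, 4 and 5. All 4 NFF libraries were above every other library, and the SFB and Control libraries overlapped. Relb fell by 0.68 ± 0.17 on the log2 scale in SFB relative to NFF (SE; limma adjusted p = 0.0359), with 15.9 ± 4.04 RPKM in SFB and 25.5 ± 1.76 RPKM in NFF (SD, n = 4 each). NFF exceeded Control by 0.51 (interval 0.10 to 0.91), which was not called (adjusted p = 0.871), and SFB differed from Control by -0.17 (interval -0.57 to 0.23, adjusted p = 0.774). Relb lies on chromosome 7 (19606217 to 19629438).

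Nfkb2 stood at 6.93, 8.55, 8.61 and 4.74 RPKM in SFB 1 to SFB 4, against 11.9, 15.9, 9.88 and 15.5 RPKM in NFF 1 to NFF 4 and 12.4, 9.48 and 9.64 RPKM in Control 2, 4 and 5. Here the SFB libraries stood alone, below every NFF and every Control library. Nfkb2 fell by 0.81 ± 0.19 on the log2 scale in SFB relative to NFF (SE; limma adjusted p = 0.0291). Against Control the SFB value was -0.51 (interval -0.96 to -0.05, adjusted p = 0.356) and the NFF value 0.30 (interval -0.16 to 0.75, adjusted p = 0.896), neither called. Its span on chromosome 19 (46304320 to 46312385) is overlapped by Psd and an antisense transcript on the opposite strand, and without strand information reads of these genes cannot be told apart.

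The calls of Relb and Nfkb2 depended on single libraries. Relb was not called without SFB 1 (-0.73, limma adjusted p = 0.0543), SFB 3 (-0.68, 0.0706), NFF 1 (-0.67, 0.0737), NFF 2 (-0.65, 0.105), NFF 3 (-0.67, 0.0816) or NFF 4 (-0.72, 0.0694), nor with quantile normalization (-0.67, 0.0516). Nfkb2 was not called without SFB 1 (-0.80, 0.0631), NFF 1 (-0.85, 0.0508), NFF 2 (-0.72, 0.0986) or NFF 4 (-0.73, 0.0927). Without SFB 4, the lowest library for both, Relb was called at -0.51 (adjusted p = 0.0399) and Nfkb2 at -0.64 (adjusted p = 0.0441). Without Control 2, SFB 2 and SFB 4 they stood at -0.61 (adjusted p = 0.0145) and -0.69 (adjusted p = 0.0492).

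**Figure D2:**
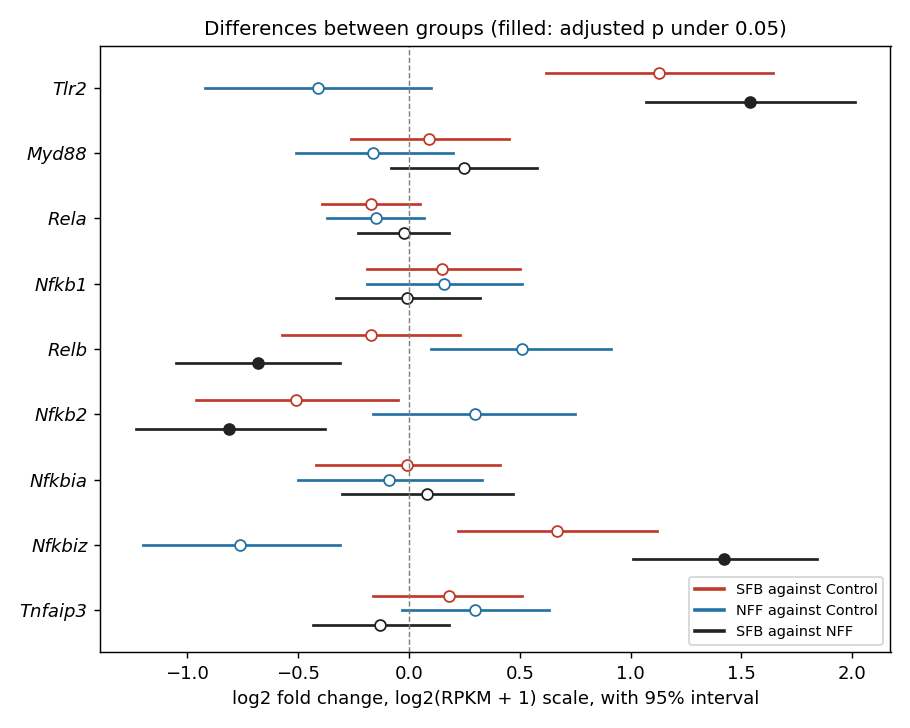
Log2 fold change of each gene on the log2(RPKM + 1) scale (x axis) for SFB against Control, NFF against Control and SFB against NFF, with limma's 95% intervals as lines; filled points have an adjusted p under 0.05. The filled points are Tlr2 at 1.54, Nfkbiz at 1.42, Relb at -0.68 and Nfkb2 at -0.81, all for SFB against NFF.

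The order of libraries within a group was compared for each pair. The SFB libraries had the same order for Tlr2 and Nfkbiz, from SFB 1 as the lowest to SFB 4 as the highest, and so had the NFF libraries, from NFF 4 as the lowest to NFF 1 as the highest. In Control the order differed, with Control 2 highest for Nfkbiz and Control 4 highest for Tlr2. Relb and Nfkb2 did not share an order: Control 2 was the lowest Control library for Relb and the highest for Nfkb2, and NFF 4 was the lowest NFF library for Relb but above NFF 1 and NFF 3 for Nfkb2. The likeness of 2 genes was described by the root mean square distance between their standardised log2 profiles over the 11 libraries, which is 0 for equal shapes. Among the members the closest pair was Tlr2 and Nfkbiz, at 0.36, followed by Relb and Nfkb2, at 0.74, and the farthest was Nfkbiz and Relb, at 1.93. These distances include the differences between groups and are descriptions without a test.

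**Figure D3:**
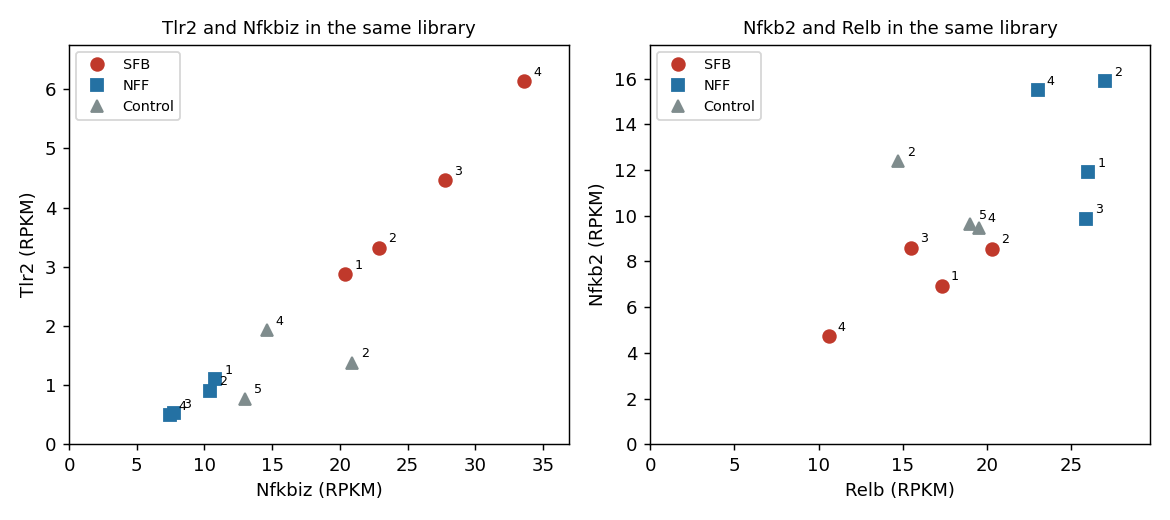
Tlr2 against Nfkbiz (left) and Nfkb2 against Relb (right), in RPKM on linear axes from 0; each point is 1 library, numbered by replicate, with the SFB, NFF and Control groups marked by shape and colour. On the left the SFB libraries lie at 20.4 to 33.6 RPKM of Nfkbiz and the NFF libraries at 7.42 to 10.8; on the right the SFB libraries lie at 10.6 to 20.3 RPKM of Relb and the NFF libraries at 23.0 to 27.0.

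The ratio of Nfkbiz to Relb in the same library, both per length, summed up the opposite directions. It was 1.13 to 3.17 in SFB, 0.299 to 0.414 in NFF and 0.683 to 1.42 in Control. The ratio of Nfkb2 to Nfkb1 was 2.01 to 3.07 in SFB, below 3.60 to 5.24 in NFF and 3.61 to 4.53 in Control. Relb over Rela was 1.01 to 2.31 in SFB, 2.37 to 3.01 in NFF and 1.42 to 1.86 in Control, so that NFF was the group that stood apart. No test was run on these ratios.

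The genes of the canonical branch differed less. Rela, the main transactivating subunit, stood at 8.54, 8.78, 8.91 and 10.5 RPKM in SFB 1 to SFB 4, against 9.62, 8.99, 9.05 and 9.68 RPKM in NFF 1 to NFF 4 and 10.4, 10.5 and 10.5 RPKM in Control 2, 4 and 5. Its 95% interval between SFB and NFF was -0.23 to 0.18 on the log2 scale, the narrowest of the members. The NFF libraries all lay below the Control libraries, at -0.15 (interval -0.37 to 0.07, limma adjusted p = 0.896). Nfkb1, the p105 precursor of p50, stood at 3.01 ± 0.903 RPKM in SFB and 2.96 ± 0.208 RPKM in NFF (SD, n = 4 each), and at 2.55 ± 0.244 RPKM in Control (SD, n = 3). SFB 3 was its highest library, at 4.28 RPKM, and SFB 4 its lowest, at 2.14 RPKM. Its span is overlapped by the annotated gene Gm43430, so reads may be shared. The interval between SFB and NFF was -0.33 to 0.32.

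Myd88 stood at 12.2, 12.6, 10.7 and 15.2 RPKM in SFB 1 to SFB 4, against 9.57, 9.44, 11.7 and 11.1 RPKM in NFF 1 to NFF 4 and 11.1, 15.3 and 9.46 RPKM in Control 2, 4 and 5. All 3 groups overlapped, and the interval between SFB and NFF was -0.08 to 0.58 (limma adjusted p = 0.315). Its annotated span on chromosome 9 (119335934 to 119341411) is overlapped by Acaa1a on the opposite strand and by Slc22a14 on its own, so reads may be shared among them.

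The inhibitor genes Nfkbia and Tnfaip3 were not called. Nfkbia, the most abundant member in every group, stood at 95.2, 104, 82.0 and 63.5 RPKM in SFB 1 to SFB 4, against 81.9, 97.6, 67.0 and 76.4 RPKM in NFF 1 to NFF 4 and 74.1, 101 and 82.5 RPKM in Control 2, 4 and 5. The groups overlapped fully, with an interval of -0.30 to 0.47 between SFB and NFF. SFB 4, the library highest in Tlr2 and Nfkbiz, was the lowest of all 11 in Nfkbia. Tnfaip3 stood at 3.83 ± 0.225 RPKM in SFB and 4.35 ± 1.02 RPKM in NFF (SD, n = 4 each), and at 3.28 ± 0.325 RPKM in Control (SD, n = 3). Its value in NFF against Control was 0.30 (interval -0.03 to 0.63, limma adjusted p = 0.896), and between SFB and NFF the interval was -0.43 to 0.18.

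RPKM is scaled by length, so the order of the members can be compared within a group. Nfkbia was first in all 3 groups. Nfkbiz was next in SFB, where its 20.4 to 33.6 RPKM lay just above the 10.6 to 20.3 RPKM of Relb, the next member. In NFF Nfkbiz was the sixth, at 9.09 ± 1.75 RPKM (SD, n = 4), and overlapped Rela and Myd88. In Control it was the third and overlapped Relb. Tlr2 was the lowest member in NFF and Control but lay above Tnfaip3 and Nfkb1 in mean level in SFB, where these ranges overlapped.

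The comparison of SFB with Control bears on colonization under the same chow, and that of NFF with Control on the fiber content of the diet. Limma called 0 members in SFB against Control, where 0.2% of tested genes were called, 0.124% higher and 0.0763% lower. At an unadjusted p under 0.05 there were 2 with higher values (Tlr2 and Nfkbiz) and 1 with a lower value (Nfkb2), against 12.1% of tested genes, 5.47% higher and 6.6% lower. In NFF against Control limma called 0 members and 0% of tested genes, and 1 member with a higher value (Relb) and 1 with a lower value (Nfkbiz) had an unadjusted p under 0.05, against 4.82% of tested genes, 2.87% higher and 1.95% lower. With array weights, which let libraries count unequally, 3 members and 1948 of the 10482 genes were called in SFB against Control. In NFF against Control 0 members and 40 genes were called with them. The weights ran from 0.152 for SFB 4 to 22.1 for SFB 1. The libraries of SFB and NFF did not overlap for the 4 called members, against 20% of tested genes, 10.1% higher and 9.91% lower. Between SFB and Control they did not overlap for Tlr2 and Nfkb2, against 9.71%, of which 3.66% were higher and 6.05% lower. Between NFF and Control they did not overlap for Relb and Nfkb1, which were higher, and for Nfkbiz and Rela, which were lower, against 9.77%, of which 5.35% were higher and 4.42% lower. For Nfkb1 the lowest NFF and the highest Control library were both 2.74 RPKM after rounding (limma unadjusted p = 0.336).

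Genes closest to the members in profile were drawn from genes with a mean of at least 3 RPKM. For Tlr2, the member of lowest p between SFB and Control, the nearest of 7608 were Zc3h12a (distance 0.26), Smad1 (0.31) and Armc8 (0.34). For Nfkbiz, the member of lowest p between NFF and Control, the nearest of 7607 were Dcbld1 (0.32), Zc3h12a (0.37) and Degs1 (0.38). Zc3h12a, which encodes the RNA-degrading enzyme regnase-1 and was near both, stood at 20.1, 21.8, 22.6 and 30.5 RPKM in SFB 1 to SFB 4, against 13.5, 13.1, 11.8 and 8.80 RPKM in NFF 1 to NFF 4 and 15, 18.7 and 13.8 RPKM in Control 2, 4 and 5.

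The wider pathway was described with 5 further lists, which held 117 genes, of which 84 were in the table and 83 were tested. Between SFB and NFF 8 of the 83 rose and 1 fell, against 3.14% and 4.2% of all tested genes, and their median log2 fold change was 0.08 against 0.02 over all tested genes. The 8 include Tlr1 and Tnfsf13b, which passed the filter on low values only through SFB. The count of 9 was 5 without NFF 1, 4 without NFF 2, 4 without NFF 4 and 47 with array weights. Array weights called 4720 of all 10482 tested genes in this comparison. In SFB against Control 0 of the 83 were called by limma. At an unadjusted p under 0.05, 11 had higher values, against 5.47% of all tested genes. In NFF against Control 0 were called and 5 had lower values at that level, against 1.95%. With array weights these counts of calls were 18 and 0, where 1948 and 40 of all tested genes were called. The count in SFB against Control was 1 without Control 4 or with quantile normalization and 2 without Control 2, SFB 2 and SFB 4, and without those 3 libraries it was 1 in NFF against Control.

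Of 13 other pattern receptors, 1 rose between SFB and NFF and the median was 0.30. It was Tlr1, which pairs with Tlr2 to recognise triacylated lipopeptides. Tlr1 stood at 2.48, 2.88, 3.21 and 4.88 RPKM in SFB 1 to SFB 4, against 0.353, 0.430, 0.631 and 0.508 RPKM in NFF 1 to NFF 4 and 0.879, 2.42 and 1.03 RPKM in Control 2, 4 and 5. The SFB libraries lay above all others, as for Tlr2, and the log2 fold change between SFB and NFF was 1.53 ± 0.21 (SE; limma adjusted p = 0.0022). It remained called without each library in turn. Against Control, Tlr1 was at 0.86 in SFB (adjusted p = 0.146) and -0.67 in NFF (adjusted p = 0.785). Tlr1 passed the filter on low values through SFB, since of the other libraries only Control 4 and Control 5 reached 1 RPKM, and its count among the receptors is no support.

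Adaptors and kinases were represented by 26 tested genes, of which limma called 0 in any comparison. Between SFB and NFF their median was 0.10. At an unadjusted p under 0.05, 4 had higher and 2 had lower values, against 12.5% and 13.2% of all tested genes. Those of lowest p were Sigirr, an inhibitory receptor of the interleukin-1 and Toll-like family (-0.45, adjusted p = 0.0635), and Traf6, the ubiquitin ligase downstream of MyD88 (0.38, adjusted p = 0.110). Among 19 inhibitors and REL partners 1 rose, with a median of 0.00. It was Zc3h12a, at 0.95 ± 0.16 (SE; limma adjusted p = 0.00679), called without each library in turn.

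Of 31 genes listed as NF-kB targets, only 14 were in the table, and all 14 were tested. Of these, 6 rose and 0 fell between SFB and NFF, against 3.14% and 4.2% of all tested genes, with a median of 0.25. One of the 6, Tnfsf13b, which encodes the B cell survival factor BAFF, reached 1 RPKM in the 4 SFB libraries only and was tested through them, so its count is no support. At an unadjusted p under 0.05, 7 of the 14 had higher and 3 had lower values, against 12.5% and 13.2% of all tested genes. The 4 largest changes were in the cyclin gene Ccnd1 (2.14, limma adjusted p = 0.00492), the survivin gene Birc5 (1.58, 0.0224), the mucosal chemokine gene Ccl28 (1.29, 0.0177) and Pigr, which encodes the receptor that carries IgA across the epithelium (0.88, 0.0332). The transcription factor gene Irf1 was also called (0.81, limma adjusted p = 0.00171), at 66.6 to 79.1 RPKM in SFB and 38.9 to 41.3 RPKM in NFF. Its call was not followed with libraries left out. Pigr stood at 862 ± 45.2 RPKM in SFB and 482 ± 124 RPKM in NFF (SD, n = 4 each), and at 721 ± 112 RPKM in Control (SD, n = 3). The call of Birc5 was lost without NFF 1, NFF 2 or NFF 4, that of Ccl28 without NFF 2 or NFF 4, and that of Pigr without SFB 1, SFB 3, SFB 4, NFF 1, NFF 2 or NFF 4 and without Control 2, SFB 2 and SFB 4 together (0.83, adjusted p = 0.0698). Ccnd1 and Birc5 are known for their part in cell division, and Birc5 is also among the crypt and dividing-cell markers. The last list held receptors for interleukin-17 and other cytokines and genes of their signalling, such as Traf3ip2, Stat3 and Socs3. Of its 11 tested genes 0 rose and 1 fell, the interleukin-10 receptor subunit Il10rb (-0.40, limma adjusted p = 0.0371). This call was lost without any one of Control 5, SFB 1, SFB 3, SFB 4 and NFF 1 to NFF 4. It was also lost without Control 2, SFB 2 and SFB 4 together (-0.43, adjusted p = 0.0595) and with median ratio scaling (-0.42, 0.0565).

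In the comparisons with Control, which share the Control libraries, the pathway genes of lowest p in each list were not called. For SFB against Control, Irf1, a transcription factor induced by interferon and NF-kB, came nearest (0.50, limma adjusted p = 0.0852), and its SFB libraries stood at 66.6 to 79.1 RPKM, against 45.9 to 52 RPKM in Control. The others were Tlr1 and Nlrx1 among receptors (0.86 and 0.49), Card9 and Rnf31 among adaptors (0.79 and 0.26), Zc3h12a and Cyld among inhibitors (0.55 and 0.34), Ccnd1 among targets (1.43), and Stat3 and Socs3 among cytokine receptors and their signalling (0.45 and 0.59). For NFF against Control, they were Tlr1 and Nlrp1b (-0.67 and 0.35), Sigirr and Card9 (0.30 and 0.48), Zc3h12a and Nfkbid (-0.40 and 0.40), Irf1 and Pigr (-0.31 and -0.61), and Il17rc and Il10rb (0.30 and 0.20), with limma adjusted p between 0.785 and 0.896. Of the genes named in both comparisons, Tlr1, Zc3h12a and Irf1 had values above 0 for SFB and below 0 for NFF, as Tlr2 and Nfkbiz had. Card9 was above 0 in both, at 0.79 and 0.48. None of these was called in either comparison.

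**Figure D4:**
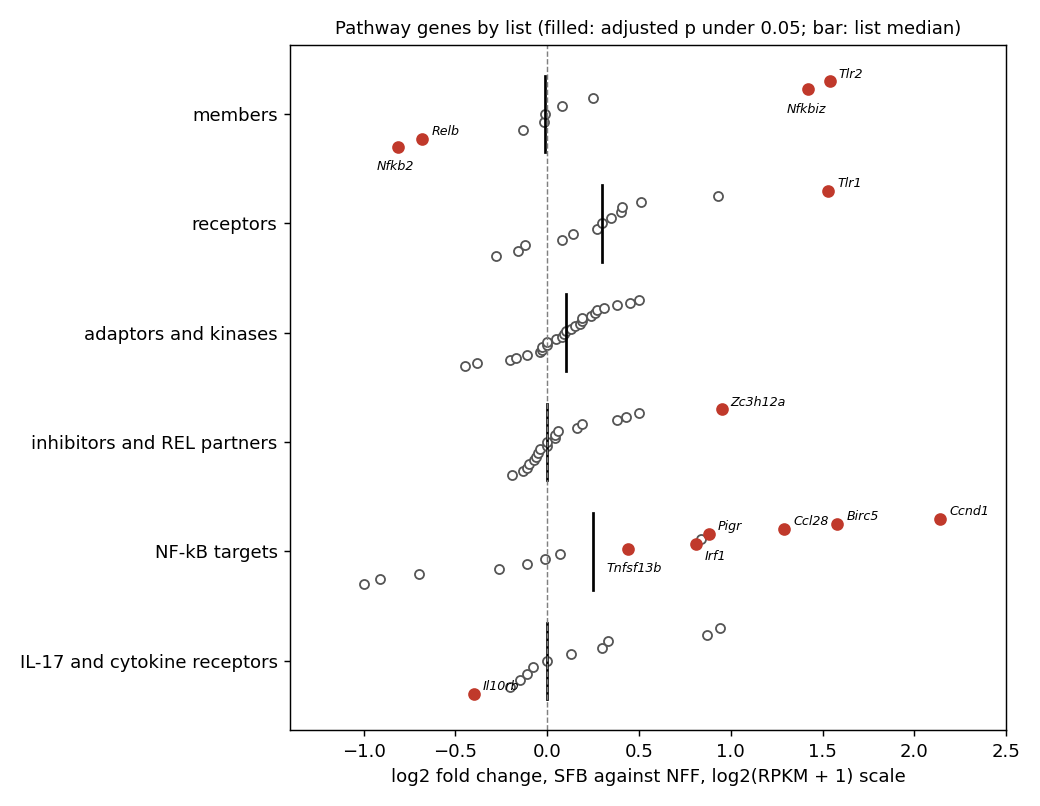
Log2 fold change between SFB and NFF on the log2(RPKM + 1) scale (x axis) for each tested gene of the members and the 5 further lists (rows); filled points have an adjusted p under 0.05, and the black bar is the list median. Of the filled points outside the members, 8 lie to the right of 0, led by Ccnd1 at 2.14 and Tlr1 at 1.53, and Il10rb lies to the left.

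Markers of other cells moved with these differences, and their part in them was not tested. Summed levels of 9 of 10 crypt and dividing-cell markers were 54.0 to 214 RPKM in SFB, 25.5 to 35.4 RPKM in NFF and 30.4 to 91.1 RPKM in Control, with SFB 4 highest, as for Tlr2 and Nfkbiz; 3 of the 9 rose between SFB and NFF. The largest change was in Olfm4 (3.00, limma adjusted p = 0.0114). It stood at 17.4 to 101 RPKM in SFB, 1.27 to 6.11 RPKM in NFF and 6.36 to 30.3 RPKM in Control, highest in SFB 4. Birc5, described above, also rose, as did Cd44, the gene of the marker sorted against. Cd44 stood at 1.46, 1.17, 2.29 and 1.90 RPKM in SFB 1 to SFB 4, against 0.646, 0.587, 0.333 and 0.583 RPKM in NFF 1 to NFF 4. Cd44 reached 1 RPKM in the 4 SFB libraries only, so it was tested through the group where it was high. Of 20 leukocyte markers 6 were in the table, with none at 0, and their sum went the other way from Tlr2, at 12.2 to 33.5 RPKM in SFB, 43.7 to 48.1 RPKM in NFF and 46.1 to 70.9 RPKM in Control. In the NFF and Control libraries most of this sum was Lyz2 (-1.50 between SFB and NFF, limma adjusted p = 0.105) and Rac2, which fell (-2.02, adjusted p = 0.0122). Lyz2 was lowest in SFB 2 (1.34 RPKM) and highest in Control 2 (50.6 RPKM), as were the summed Paneth markers (411 and 23726 RPKM). Rac2 was lowest in SFB 4 (0.917 RPKM) and highest in NFF 4 (24.5 RPKM), as were the summed tuft markers (6.21 and 102 RPKM). Whether the leukocyte sum follows leukocyte content was not tested. Itgam, the CD11b gene of myeloid cells, rose, at 6.65, 5.46, 7.57 and 12.7 RPKM in SFB 1 to SFB 4, against 3.48, 2.48, 2.48 and 1.12 RPKM in NFF 1 to NFF 4 (1.41, limma adjusted p = 0.0189). Ptprc stood at 1.05, 0.656, 1.35 and 0.247 RPKM in the same SFB libraries, against 1.58, 2.09, 1.40 and 2.48 RPKM in the NFF libraries, lowest where Tlr2 was highest. Ms4a1 and Lcp1, the other 2, did not pass the filter on low values. Of 7 tuft cell markers 5 were in the table, and all 5 fell between SFB and NFF, as Relb and Nfkb2 did, led by Trpm5 (-2.67, limma adjusted p = 0.0022), with sums of 6.21 to 27.5 RPKM in SFB, 60.7 to 102 RPKM in NFF and 36.9 to 74.5 RPKM in Control. Of 7 enteroendocrine markers 2 fell, Chga (-1.87, limma adjusted p = 0.0455) and Chgb (-2.09, 0.0368), and the sums were 176 to 455 RPKM in SFB, 516 to 1734 RPKM in NFF and 435 to 1862 RPKM in Control. Limma called 0 of 7 goblet cell markers between SFB and NFF, and all 7 were below 0. At an unadjusted p under 0.05, 4 had lower values, against 13.2% of all tested genes. Summed goblet levels overlapped, at 3112 to 7558 RPKM in SFB, 5507 to 15029 RPKM in NFF and 6641 to 10336 RPKM in Control. All 7 Paneth cell markers were also below 0 between SFB and NFF, with 0 called and 0 at an unadjusted p under 0.05. Their sums were 411 to 11948 RPKM in SFB, 10134 to 16335 RPKM in NFF and 12193 to 23726 RPKM in Control. Of 8 epithelial markers 1 fell between SFB and NFF, Krt18 (-1.05, limma adjusted p = 0.0278), against 4.2% of all tested genes. Of 14 endothelial and stromal markers 2 were in the table, with sums of 0.409 to 3.97 RPKM in SFB, 0.837 to 1.18 RPKM in NFF and 0.386 to 1.07 RPKM in Control.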

How the data were processed

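Total RNA of sorted cells was converted to full-length cDNA with SMART-seq v4 and made into libraries with NexteraXT, per the labels' protocols; neither kit marks the strand or adds molecular identifiers. Reads were aligned with STAR to mm10, per the submitters' processing notes. The authors deposited 1 table of RPKM values, per the file headers; the counting tool, annotation, scaling total and rule for a detected gene were not given in the sources used here. RPKM is not a count, so values were tested as log2(RPKM + 1). Of 11366 genes, 10482 had at least 1 RPKM in at least 3 libraries; the other 884 were not tested. Limma 3.58.1 in R 4.3.3 fitted 1 mean per group to all 11 libraries (8 residual degrees of freedom), with eBayes and a mean trend, and Benjamini-Hochberg adjustment over all tested genes. The script was tested on simulated data.

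Members, lists and tests were chosen with earlier results of these data known. All 10 members were to be named. From each further list the rule took up to 4 called genes of largest change, or up to 2 of lowest p, and for 2 members the 3 genes of nearest profile. Which uncalled genes the text describes, Itgam and the kB motif forms were chosen after their values were seen. Positions are from GENCODE M21 (GRCm38, the assembly that mm10 names). The alternatives were other pseudocounts, filters, scalings and spread models, array weights, a fit of 2 groups only, a block for the replicate number, and fits without single libraries or without 3 libraries that stood apart on markers.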

Additional observations from a re-analysis of the deposited data

How the results depend on the processing

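Leaving out 1 library at a time, the number of members called between SFB and NFF was 2 to 4, in SFB against Control 0 to 1 and in NFF against Control 0, while the number of all genes called was 240 to 994, 7 to 94 and 0 to 8 in the same comparisons. The labels do not say that a replicate number marks shared animals or days, and same-numbered SFB and NFF libraries deviated from their group means with correlations of 0.03, -0.17, -0.30 and -0.27 over genes. For SFB and Control these were 0.20 (number 2) and 0.67 (number 4), and for NFF and Control -0.17 and -0.28. With the number as a replicate block 2 members (Tlr2 and Nfkbiz) and 335 genes were called between SFB and NFF, with Nfkb2 at adjusted p = 0.0711 and Relb at 0.0932, and with Pigr (0.101) and Il10rb (0.118) not called, and 0 genes in SFB against Control. Array weights, whose estimation stopped before convergence and which ran from 0.152 for SFB 4 to 22.1 for SFB 1, gave 4720 genes between SFB and NFF, 1948 genes and 3 members in SFB against Control, and 40 genes in NFF against Control; the members were Tlr2, Nfkbiz and Rela. In SFB against Control 13 genes were called with a mean RPKM of at least 3, where fewer genes were tested, 11 with median ratio scaling, 1 with only the 2 groups compared and 95 without Control 2, SFB 2 and SFB 4. In NFF against Control 1 gene was called with only the 2 groups compared and 22 without those 3 libraries. Quantile normalization gave 1173 genes between SFB and NFF. The causes were not tested.

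Of 615 pairs of a member and an alternative, 578 kept direction and call, 13 lost a call, 5 gained one and 19 changed direction, all 19 in members near 0. In SFB against Control, Nfkbia was 0.08 with quantile normalization, 0.17 with array weights and -0.10 to 0.13 with 1 library left out, and Myd88 was -0.07 without Control 2, SFB 2 and SFB 4 and -0.05 to 0.27 with 1 left out. In NFF against Control, Myd88 was 0.01 with array weights and -0.30 to 0.02 with 1 left out, and Nfkbia -0.19 to 0.03. Between SFB and NFF, Nfkb1 was 0.00 with quantile normalization, 0.19 without Control 2, SFB 2 and SFB 4 and -0.15 to 0.10 with 1 left out, Rela -0.08 to 0.00 and Nfkbia -0.01 to 0.22. The read depth is unknown, so counting error could not be given for low genes such as Tlr2.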
